A study of Mus musculus with 12 samples.

Results

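The summits examined here are those of the Stat3 ChIP-seq list of peroxide-treated -/-WT MEFs that had no counterpart in any other deposited list. They were chosen by position: a summit of this list was taken as WT-peroxide-only if no summit of the other 4 lists lay within 200 bp of it. A summit that also appeared in the -/-C3S peroxide list is therefore not in this set. Of 450 summits in the list, 282 met this rule and the other 168 are called shared, while the 5 lists together held 2136 summits. The cells were polyclonal lines of immortalised mouse embryonic fibroblasts (MEFs) from Stat3 fl/fl embryos, in which Cre had deleted endogenous Stat3 and a retroviral vector with GFP brought back wild-type Stat3 (-/-WT) or, in the second line, the cysteine mutant Stat3-C3S (-/-C3S), which does not respond to oxidation. All cells were kept overnight in medium with little serum before treatment. There were 2 ChIP replicates for each of 5 groups: -/-WT MEFs under basal conditions, with LIF (10 ng/ml for 45 min) or with peroxide (1 h), and -/-C3S MEFs that were likewise left under basal conditions or given peroxide (1 h). The sample labels give the peroxide dose as 100 mM, whereas the study's text gives it in µM. Each deposited list was called on both replicates of a group together, so that no value below carries a replicate error, and a difference between lists is not a tested difference between conditions. Absence from a list means that no summit was called there, not that reads were absent. The study states that its peaks called in peroxide-treated -/-WT cells alone could also be seen in peroxide-treated -/-C3S cells and in untreated controls. They were not seen after LIF.

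Stat3 is a transcription factor that cytokines such as LIF activate through Jak kinases, after which dimers bind a palindromic DNA element, the sis-inducible element (SIE, TTCCNGGAA). Hydrogen peroxide oxidises Stat3 cysteines. The loci described below lie mostly in sequence of the LINE-1 kind, a retrotransposon that is very frequent in the mouse genome. A full-length LINE-1 has a promoter region at its 5′ end, a first open reading frame (ORF1) that encodes an RNA-binding protein, a second (ORF2) that encodes an endonuclease and a reverse transcriptase, and a 3′ end with a poly(A) tail. Young copies differ from each other at few bases, so that a short read from such a copy can match many places in the genome.

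Windows of 161 bp around 4 of the 10 highest-scoring WT-peroxide-only summits are shown first, because they resemble the repeat that most of the 282 summits lie in. They are the 3 with the highest scores and the only other one of the 10 with an AP-1 motif, so that the summits at ranks 14 and 15 were passed over. They were read from the GRCm38 reference in the direction of the element described below. In the window from chromosome 5, capitals mark the codons for phenylalanine, alanine and a pair of aspartates (FADD), the catalytic letters of the LINE-1 reverse transcriptase. In the windows from chromosomes 14 and 6, which start 5 bp apart on the element, capitals mark an AP-1 motif (TGANTCA). The window from chromosome 3, which holds neither, lies 3′ of ORF2.
chr5:18738559-18738719 (plus strand): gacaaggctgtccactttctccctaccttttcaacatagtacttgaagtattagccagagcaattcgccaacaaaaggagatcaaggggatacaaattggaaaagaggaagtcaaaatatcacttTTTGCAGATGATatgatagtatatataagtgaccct
chr14:98735149-98735309 (minus strand): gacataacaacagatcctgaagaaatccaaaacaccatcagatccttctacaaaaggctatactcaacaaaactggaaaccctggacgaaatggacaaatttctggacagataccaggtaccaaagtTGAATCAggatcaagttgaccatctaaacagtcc
chr3:72615397-72615557 (plus strand): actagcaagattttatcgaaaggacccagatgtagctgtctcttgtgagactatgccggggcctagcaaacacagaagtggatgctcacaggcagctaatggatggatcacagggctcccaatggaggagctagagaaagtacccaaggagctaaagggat
chr6:73109951-73110111 (plus strand): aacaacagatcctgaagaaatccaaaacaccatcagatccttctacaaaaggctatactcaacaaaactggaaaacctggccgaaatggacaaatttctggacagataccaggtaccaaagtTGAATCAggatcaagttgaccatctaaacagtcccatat
These summits had scores of 67.4, 59.2, 39.1 and 38.5 and ranked 2, 4, 13 and 16 in the list of 450. Elsewhere in the assembly, the windows had 12890, 12521, 23561 and 12422 copies with at least 95% identity over at least 60% of the window, in the same order.

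The position rule separated the summits with a wide gap. The shared summit farthest from its counterpart was 125 bp away from it (chromosome 14, score 12.4), and the closest WT-peroxide-only summit was 460 bp from a -/-C3S peroxide summit (chromosome 1, score 9.88). The next WT-peroxide-only summit, on chromosome 3, was 975 bp from a basal -/-WT summit. The median distance of a WT-peroxide-only summit to the nearest summit of another list was 770 kb, and 257 of the 282 were over 100 kb away. Hence the number of WT-peroxide-only summits moved only between 283 and 280 when the distance was set to 100, 500 or 1000 bp. The distances to other lists were what the rule used, and they were not compared with those of other genome positions. They do not show that the loci are unusually remote. Of the 168 shared summits, 105 were found in 1 other list, 45 in 2 and 18 in 3. The basal -/-WT list alone accounted for 56 of them, the -/-C3S peroxide list alone for 31 and the -/-C3S basal list alone for 18. When only the basal -/-WT list was used for the rule, 343 of the 450 summits lacked a counterpart.

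**Figure D1:**
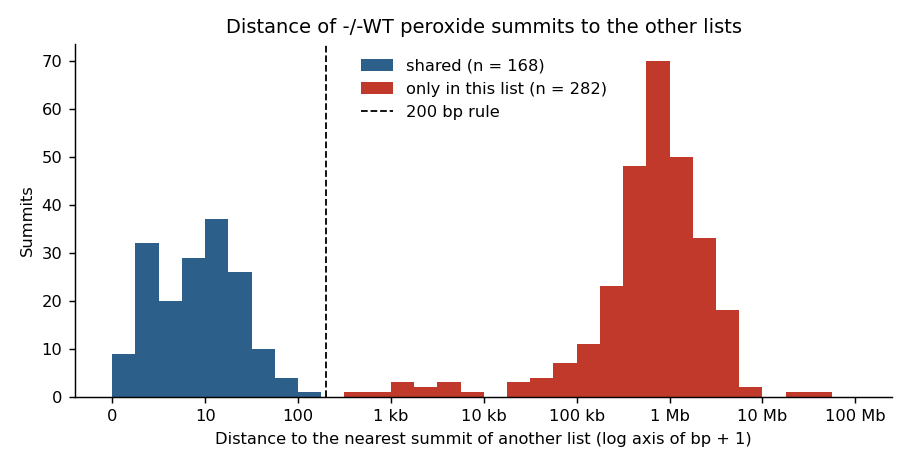
The number of -/-WT peroxide summits is plotted against the distance in bp to the nearest summit of any other list, on a log axis, for the 168 shared (blue) and the 282 WT-peroxide-only summits (red), and the dashed line marks the 200 bp rule. No summit lies between 125 and 460 bp, and most WT-peroxide-only summits are over 100 kb from another list's summit.

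Every list held summits of its own under the same rule. In the -/-WT peroxide list they made up 62.7% of the summits (95% interval 58 to 67.2%), in the -/-C3S peroxide list 52.9% (118 of 223), in the -/-C3S basal list 44.1% (64 of 145), in the basal -/-WT list 41.7% (96 of 230) and in the LIF list 99.5% (1083 of 1088). The lists differ in length, which bears on these shares, and the shares were not tested against each other because they are what the rule counts. All intervals are exact Clopper-Pearson intervals and cover counting error only.

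WT-peroxide-only summits tended to stand lower in the score ranking than shared summits of the same list. Their scores ran from 2.4 to 67.4 with a median of 10.5 (quartiles 7.24 and 14.3), against a median of 14.5 (quartiles 9.91 and 20.5) and a highest score of 113 for the shared summits. In terms of rank, the medians were 263 and 154 of 450. Among the 10 highest-scoring summits 2 were WT-peroxide-only, and among the first 45 there were 16. The share of WT-peroxide-only summits was 42.9% (33.5 to 52.6%) in ranks 1 to 112, 59.3% (49.6 to 68.4%) in ranks 113 to 225, 72.3% (63.1 to 80.4%) in ranks 226 to 337 and 76.1% (67.2 to 83.6%) in ranks 338 to 450. The median score of shared summits in turn was 13.2 where 1 other list held them, 16.7 with 2 lists and 22.7 with 3 lists. Scores and peak calls come from the same reads, and therefore the scores are given without a test.

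**Figure D2:**
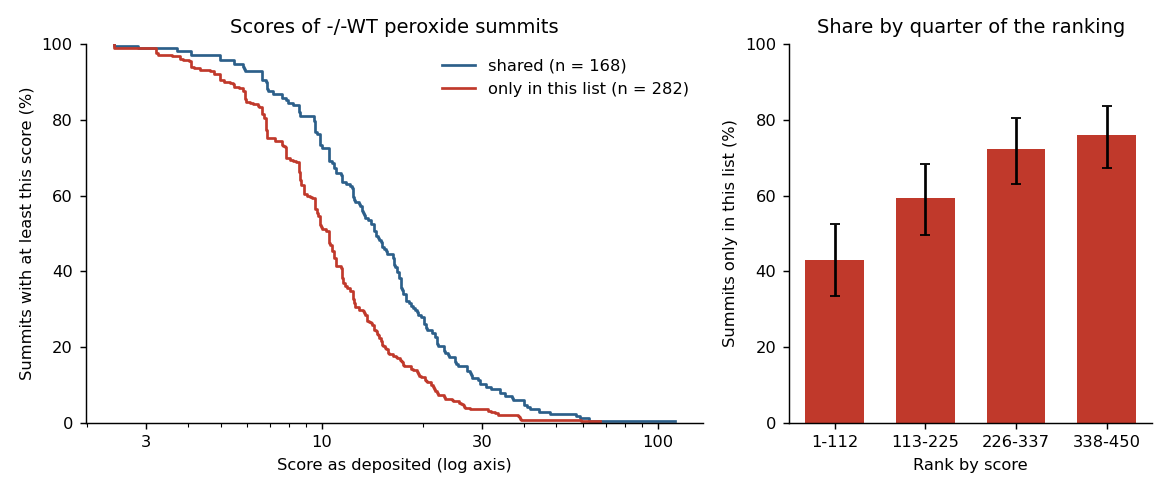
The left panel plots the percentage of summits with at least a given deposited score (log axis) for the shared (blue, median 14.5) and the WT-peroxide-only summits (red, median 10.5), and the right panel the percentage of WT-peroxide-only summits in consecutive rank bands, with exact 95% intervals as error bars. The WT-peroxide-only curve runs to the left of the shared one over most of the range, and the WT-peroxide-only share is 42.9% in the top band and 76.1% in the bottom band.

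Most WT-peroxide-only summits lay outside genes and promoters. By the GENCODE annotation, 201 of 282 fell between genes (71.3%, 95% interval 65.6 to 76.5%), 64 within introns (22.7%, 17.9 to 28%), 16 in promoters, taken as 5 kb upstream to 0.5 kb downstream of any start site (5.67%, 3.28 to 9.05%), and 1 in an exon. Of the bases of the genome, 48% were intergenic, 34.5% intronic and 14.6% in promoters by the same definitions. The shared summits of the list had a like distribution, with 67.3% intergenic, 26.2% intronic and 5.95% in promoters. No difference between the groups was detected in 2-sided Fisher's exact tests (p = 0.397, 0.425 and 1, adjusted p = 1 for each over the 11 measures tested here). The nearest start site was at a median distance of 29 kb for WT-peroxide-only and 24.7 kb for shared summits, and 97 of the 282 WT-peroxide-only summits (34.4%) lay more than 50 kb from any.

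Each of the 16 promoter summits lay upstream of an annotated start site of 1 gene, so that 16 of 55413 annotated genes (0.0289%) had a WT-peroxide-only summit in their promoter. Of these genes, 5 encode proteins. Nuf2 encodes a kinetochore protein that holds chromosomes to spindle microtubules, and its summit lay 4.51 kb upstream with a score of 8.87. Anapc10, a subunit of the anaphase-promoting ubiquitin ligase, had the highest-scoring summit of the 5, at 19.2. It lay within the gene body, 3.18 kb upstream of an internal start site and not upstream of the gene's 5′ end. Abca5, a lipid transporter of the ABC family, had its summit 3.41 kb upstream with a score of 11.6. The summit next to Zfp112, a zinc finger gene, was closest to a start site among these, at 0.667 kb upstream with a score of 10.3. Olfr320, an olfactory receptor, had a summit 4.52 kb upstream with a score of 9.76.

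The other 11 genes were not classed as protein-coding in the annotation. Ighv6-6 and Igkv8-26, variable segments of the immunoglobulin heavy and kappa light chain loci, had summits 3.35 and 0.816 kb upstream with scores of 14.5 and 6.26. The highest-scoring promoter summit, at 21.1 and rank 70, was 3.34 kb upstream of the antisense gene Gm48715. It was followed by one 0.978 kb upstream of the lincRNA F630042J09Rik with a score of 19.4. That summit also lay within the gene body of the protein-coding zinc finger gene Zfp458. It was 0.867 kb downstream of a start site of Zfp458 and thus outside that gene's promoter window. The remaining genes were 4 pseudogenes (Gm47102, Gm12818, AC166779.3 and Gm15126) and 3 loci that the annotation lists as to be experimentally tested (Gm43903, Gm48916 and Gm38279). Every one of the 16 windows was fully repeat-masked and was similar to the LINE-1-like element described below, at 92.3 to 99.4% identity, with 10 in ORF2, 2 in ORF1 and 4 in the 3′ part. An SIE was found in 0 of the 16 windows, and any of the 4 motifs searched here in 1.

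The promoter summit nearest to a start site, 0.263 kb upstream of the processed pseudogene Gm47102 and inside an exon of the overlapping gene Gm47103, is printed here in lower case in full, because it shows that ORF1 sequence was present at a promoter.
chr9:105086732-105086892 (plus strand): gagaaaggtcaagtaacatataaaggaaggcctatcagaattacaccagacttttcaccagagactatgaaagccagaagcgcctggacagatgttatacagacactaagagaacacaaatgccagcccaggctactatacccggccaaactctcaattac

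The gene lists of the Jak-Stat3 axis, of the response to peroxide through Nrf2 and of hypoxia through Hif-1 held 20 genes each, all of which were found in the annotation. Of each list, 0 genes had a WT-peroxide-only summit in the promoter and 0 had one within 50 kb of a start site, where 472 of all 55413 genes (0.852%) had one. At that share, 0 of 20 does not set a list apart. The nearest WT-peroxide-only summit was 6829 kb from Stat3 itself and 1524 kb from the AP-1 subunit gene Junb. For Socs3, the feedback inhibitor of Jak kinases, it was 7628 kb away. It was 552 kb from Hmox1, the haem oxygenase gene of the Nrf2 response, and 1260 kb from Hif1a. The genes of the lists closest to a WT-peroxide-only summit were Slc7a11, the cystine transporter subunit, at 102 kb, and Hk2, a hexokinase, at 378 kb. A shared summit of the same list did lie 0.246 kb upstream of the Stat3 start site (score 12.3, rank 203). The basal -/-WT and LIF lists held it too, so that the rule left it out of these counts and distances. Of 187 genes that the study had listed as responsive to oxidation and that were matched by name, 0 had a WT-peroxide-only summit in the promoter and 1 (0.535%) had one within 50 kb, which was the zinc finger gene Zfp457 at 14 kb. That summit was the promoter summit of F630042J09Rik. The study chose these genes from RNA-seq of the same cell lines, which was not analysed here.

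The 64 intronic summits lay in 67 annotated genes, 51 of which encode proteins. These were long genes, with a median length of 361 kb against 17.4 kb for all 21938 protein-coding genes. Any set of intronic positions falls more often in long genes, so that this difference does not set the loci apart. The genes named in the rest of this paragraph were picked after their values were seen. Dnah6, an axonemal dynein heavy chain, and Mmp16, a membrane-bound matrix metalloproteinase, held the intronic summits with the highest scores (38.5 and 31.2), followed by Pde1c, a cyclic nucleotide phosphodiesterase (26.7), and Dlg2, a synaptic scaffold protein (23.1). Lrp1b, a lipoprotein receptor family gene of 2058 kb, was the only gene with 2 WT-peroxide-only summits in its introns. The dystrophin gene Dmd, at 2257 kb, held 1 summit with a score of 10.7. For 56 intronic summits the element's strand and that of the host gene could be compared. The element was on the strand opposite to the gene in 39 (69.6%, 55.9 to 81.2%) and on the same strand in 17. Among the shared summits it was opposite in 21 of 40 (52.5%, 36.1 to 68.5%). Orientation was examined after other results had been seen, and the difference was not tested. The orientation of like elements in other introns of the genome was not determined, so that these shares do not set the loci apart.

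The 10 highest-scoring WT-peroxide-only summits had scores between 31.2 and 67.4, and 8 of them were intergenic and 2 intronic. The nearest gene was a processed pseudogene for 6 and protein-coding for 4. The summit with a score of 67.4, on chromosome 5, was 75.6 kb from Gm17889, and that with a score of 59.2, on chromosome 14, was 20.4 kb from Gm27034. The next, on chromosomes 3 and 10 (39.1 and 39), lay 11.1 kb from Gm37901 and 74.6 kb from Gm26923. The protein-coding neighbours were Lcn4, a lipocalin, at 6.28 kb (score 38.8), Dnah6 at 29 kb, Rpe65, the retinoid isomerase of the retinal pigment epithelium, at 74.9 kb (32.7), and Mmp16 at 30.5 kb. Gm12460, at 175 kb, and Gm14906, at 17.6 kb, were nearest to the summits with scores of 33.5 and 31.9. Summits of other lists were between 40.4 and 3412 kb away from these 10. Even so, each of the 10 windows was similar to a summit window of another list elsewhere in the genome, by the measure defined below.

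Nearly all WT-peroxide-only summits were in repeats. Every base within 80 bp of the summit was repeat-masked for 279 of 282 (98.9%, 96.9 to 99.8%) and for 166 of 168 shared summits (98.8%, 95.8 to 99.9%), compared with 13.5% of consecutive windows of this width over the genome. The groups did not differ detectably (Fisher's exact test, p = 1, adjusted p = 1). The masked run around a WT-peroxide-only summit, extended until the first unmasked base, had a median length of 6212 bp, and it measured 5 to 8 kb for 174 summits (61.7%). For shared summits the median was 6220 bp. A near-identical copy, as defined above, existed elsewhere in the assembly for 280 of 282 WT-peroxide-only windows (99.3%, 97.5 to 99.9%) and 167 of 168 shared windows (99.4%, 96.7 to 100%). The exact test found no difference here either (p = 1, adjusted p = 1). The median number of such copies was 13007 for WT-peroxide-only and 13064 for shared windows, and 201 of 282 WT-peroxide-only windows (71.3%) had 10000 or more.

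To see which repeat this was, the masked run of the highest-scoring WT-peroxide-only summit with an intact pair of reading frames was taken as a model. It spanned chr10:103655068-103661536 on the minus strand of GRCm38 (6469 bp) around the summit with a score of 39. It held an open frame of 371 codons from base 744 and, after it, one of 1281 codons from base 1900 that contained the letters FADD. This is the order of ORF1 and ORF2 in a LINE-1, and the run is called LINE-1-like here, since no annotation of repeat families was used. Windows were counted as similar to it at 80% identity or more over 60% of the window. By this measure 264 of 282 WT-peroxide-only windows (93.6%, 90.1 to 96.2%) and 161 of 168 shared windows (95.8%, 91.6 to 98.3%) were similar to the model, as were 8.93% of 26458 windows placed every 100 kb over the genome. The share was 94.3% for the whole basal -/-WT list, 85.5% for -/-C3S basal and 95.1% for -/-C3S peroxide. In the LIF list it was 0 of 1088 (95% interval up to 0.338%). Of the WT-peroxide-only windows, 216 (76.6%) were at least 95% identical to the model. An open frame of 1000 or more codons with FADD was present in the masked run of 80 WT-peroxide-only (28.4%, 23.2 to 34%) and 55 shared summits (32.7%, 25.7 to 40.4%). The model came from a WT-peroxide-only summit and was chosen after the masking was known, so that these shares are descriptions.

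The summits were spread along the element and did not sit at a common position. Of the 264 WT-peroxide-only summits with a match, 7 mapped 5′ of ORF1 (2.65%, 1.07 to 5.39%), 31 to ORF1 (11.7%, 8.12 to 16.3%), 180 to ORF2 (68.2%, 62.2 to 73.8%) and 46 to the part 3′ of ORF2 (17.4%, 13 to 22.5%). These parts make up 11.5%, 17.2%, 59.4% and 11.2% of the model's length. The 18 windows without a match were not placed, so that the share of each part depends on the model chosen. Per kb of element, this was 9.42 summits 5′ of ORF1, 27.9 in ORF1, 46.8 in ORF2 and 63.3 in the 3′ part. Near-identical copies in the genome followed the same order of parts, with medians of 4342, 5503, 13963 and 22196 copies per window along the model. Whether copy number accounts for the spread was not tested. Of the shared summits, 5 mapped 5′ of ORF1, 10 to ORF1 (6.21%, 3.02 to 11.1%), 130 to ORF2 (80.7%, 73.8 to 86.5%) and 16 to the 3′ part (9.94%, 5.79 to 15.6%). WT-peroxide-only summits thus had lower shares in ORF2 and higher shares in ORF1 and in the 3′ part, which was seen after the fact and not tested. Median scores of WT-peroxide-only summits were 5.89 in the 5′ part, 8.67 in ORF1, 10.7 in ORF2 and 10.6 in the 3′ part.

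**Figure D3:**
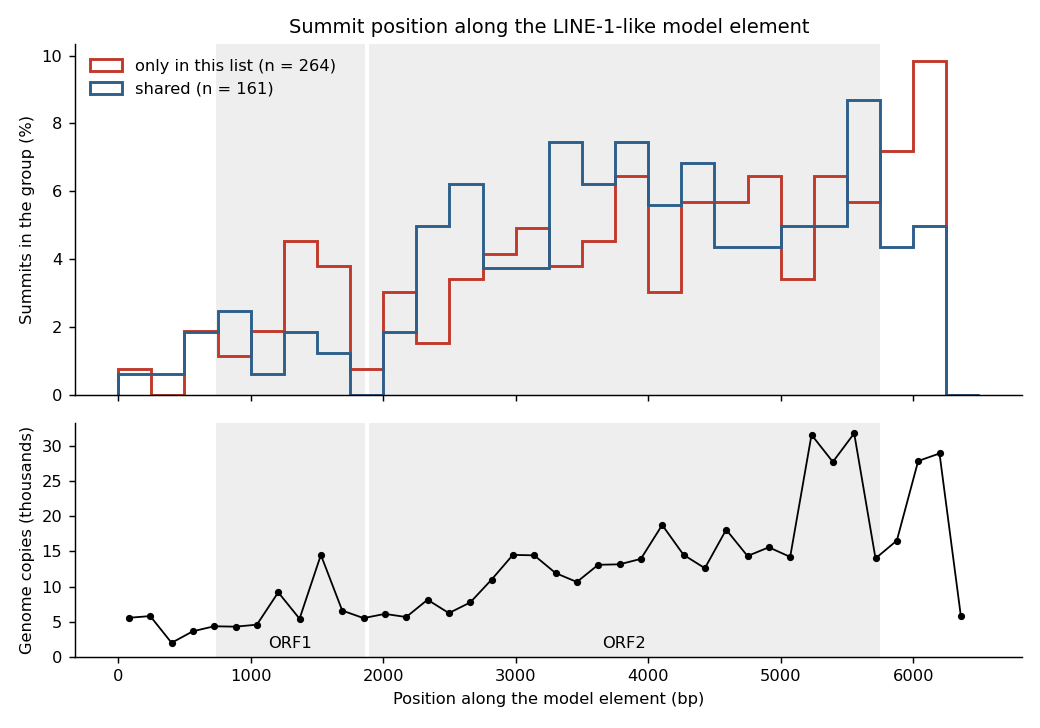
The upper panel plots the percentage of the 264 WT-peroxide-only (red) and 161 shared summits (blue) with a match in bins along the model element, in bp from its 5′ end, and the lower panel the number of genome copies with at least 95% identity for 40 windows along it, in units of 1000 copies. Grey areas mark ORF1 and ORF2. Both the matched summits and the copies are sparse at the 5′ end of this model, where the lowest window has 1987 copies against 31793 at the highest.

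Although no other list had a summit called within 200 bp of these loci, the same sequence recurred under summits of other lists at other loci. A window was counted as similar at 90% identity over 60% of its length, to a summit window of another list more than 1 kb away. This was so for 275 of 282 WT-peroxide-only windows (97.5%, 95 to 99%) and 163 of 168 shared windows (97%, 93.2 to 99%), a difference that was not detectable (Fisher's exact test, p = 0.769, adjusted p = 1). As most windows of the lists other than LIF were similar to the model, a high share in both groups was close to given. By list, 268 WT-peroxide-only windows (95%) had such a match in the -/-C3S peroxide list, 264 (93.6%) in the basal -/-WT list and 233 (82.6%) in the -/-C3S basal list, and 0 in the LIF list. A WT-peroxide-only window was also similar to a median of 10 other windows of its own list. The closest ungapped match between a WT-peroxide-only summit and a basal -/-WT summit on another chromosome is shown next, with the differing bases in capitals. The WT-peroxide-only summit, on chromosome 13 with a score of 24.4, was the only one classed as exonic once promoters had been assigned, and lay in an exon of the non-coding locus Gm48765 within the gene body of Lyrm4. The basal summit, on chromosome 2, had a score of 5.26 in its own list.
chr13:36008120-36008280 (plus strand): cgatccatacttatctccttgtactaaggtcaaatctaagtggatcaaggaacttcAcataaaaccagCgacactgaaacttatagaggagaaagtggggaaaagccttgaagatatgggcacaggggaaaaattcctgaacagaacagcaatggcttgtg
chr2:108948414-108948574 (plus strand): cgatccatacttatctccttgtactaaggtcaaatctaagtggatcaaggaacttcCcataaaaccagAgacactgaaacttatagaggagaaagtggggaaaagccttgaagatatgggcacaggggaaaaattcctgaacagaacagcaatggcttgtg
Of 161 bases, 159 were identical (98.8%), and the summits lay at the same base of the alignment.

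For 7 WT-peroxide-only summits, the same masked run also held a summit of another list, at distances between 0.46 and 5.56 kb. All 7 were intergenic. On chromosome 1 the neighbour was the -/-C3S peroxide summit at 460 bp named above. On chromosomes 3, 11 and 17 it was a basal -/-WT summit, at 0.975, 1.24 and 1.96 kb, next to WT-peroxide-only summits with scores of 8.62, 4.97 and 11.5. On chromosomes 14 and 2 it was a -/-C3S peroxide summit, at 3.12 and 3.43 kb (scores 12.4 and 19.7). The run of 13462 bp on chromosome 10 held summits of 3 other lists, with the closest at 5.56 kb. Thus these masked runs held summits of other lists as well, but at another base. A run can join adjacent repeats, so that the summits need not lie in the same copy.

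The 18 WT-peroxide-only summits that did not match the model had a median score of 7.54, and 3 of them were in the upper 225 ranks. Of these windows 15 were fully masked, and 6 lay in runs with an open frame of 1000 or more codons with FADD, in the introns of Pkhd1, Cdh12 and Nkain3 and between genes on chromosomes 2, 5 and 12. The highest-scoring of the 18, on chromosome Y (score 21.1, rank 71), was in a masked run of 6703 bp and had 3509 near-identical copies. Windows similar to 12 of the 18 were found under summits of other lists. Which part of a repeat these 18 windows came from was not determined.

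Only 3 WT-peroxide-only windows were not fully masked, and all had low scores. They are shown with unmasked bases in capitals, on the plus strand, because they are the exceptions to the repeat pattern.
chr1:85075097-85075257 (plus strand): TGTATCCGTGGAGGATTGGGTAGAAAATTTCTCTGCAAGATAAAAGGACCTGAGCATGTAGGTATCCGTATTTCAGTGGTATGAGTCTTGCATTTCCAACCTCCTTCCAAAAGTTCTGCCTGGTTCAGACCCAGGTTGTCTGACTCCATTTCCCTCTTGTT
chr15:61247148-61247308 (plus strand): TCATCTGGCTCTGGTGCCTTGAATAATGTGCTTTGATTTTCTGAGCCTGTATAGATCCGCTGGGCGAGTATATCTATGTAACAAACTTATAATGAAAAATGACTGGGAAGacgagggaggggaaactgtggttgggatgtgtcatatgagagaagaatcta
chr19:34595599-34595759 (plus strand): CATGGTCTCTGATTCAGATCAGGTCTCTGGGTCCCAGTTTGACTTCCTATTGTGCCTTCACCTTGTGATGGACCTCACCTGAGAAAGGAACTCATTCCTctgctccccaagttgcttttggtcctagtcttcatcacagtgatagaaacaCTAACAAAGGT
The window on chromosome 1 (score 5.46, rank 414) had no masked base, lay in an intron of C130026I21Rik and of the pseudogene Gm18342, and had 5 near-identical copies elsewhere. That on chromosome 15 (score 2.4, rank 448) was intergenic, 41.2 kb from the lincRNA Gm29904, and 31.7% masked. The window on chromosome 19 (score 3.87, rank 436), also 31.7% masked, was in an intron of Ifit1bl1, a gene of the interferon-induced Ifit family, 3.65 kb from a start site. It held an AP-1 motif and the AGG pair described below. Near-identical copies were found for neither the chromosome 15 nor the chromosome 19 window.

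The motifs searched on both strands were the SIE (TTCCNGGAA), AP-1 (TGANTCA), the hypoxia response element (HRE, core ACGTG or GCGTG) and a pair of AGG triplets (AGGNNNAGG), to which Stat3 mutants have been proposed to bind. The SIE was in 0 of 282 WT-peroxide-only windows, which allows a share of up to 1.06%, and in 0 of 168 shared windows, which allows up to 1.79%. It was in 0.399% of all windows over the genome and 0.246% of the fully masked ones, and as both limits lie above these shares, the counts are too small to tell whether it was rarer under the summits. AP-1 was in 10 WT-peroxide-only windows (3.55%, 1.71 to 6.42%) and 4 shared ones (2.38%), against 2.66% of fully masked genome windows. HRE was in 26 (9.22%, 6.11 to 13.2%) and 13 (7.74%), against 7.97%. The AGG pair was in 13 (4.61%, 2.48 to 7.75%) and 9 (5.36%), against 10.3%. None of the 4 differed detectably between WT-peroxide-only and shared windows (Fisher's exact tests, p = 1, 0.584, 0.729 and 0.822, adjusted p = 1). The summits with AP-1 ranged from rank 4 to rank 436. All except those at Gm4756 and Ifit1bl1, which did not match the model, carried it at the same place of ORF2. Those at Dnah6 and on chromosome 14 shown above are among them. These AP-1 motifs are therefore copies of the same repeat site and not separate occurrences. With 250 bp either side of the summit, 1.42% of WT-peroxide-only and 1.19% of shared windows held an SIE.

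GC content was the measure with the largest difference between the groups relative to its error. It was above the median of the list in 148 of 282 WT-peroxide-only windows (52.5%, 46.5 to 58.4%) and 72 of 168 shared windows (42.9%, 35.3 to 50.7%), which did not pass (Fisher's exact test, p = 0.0517, adjusted p = 0.568). The medians were 40.4% and 39.1% GC, and single WT-peroxide-only windows ranged from 32.3 to 67.1%.

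**Figure D4:**
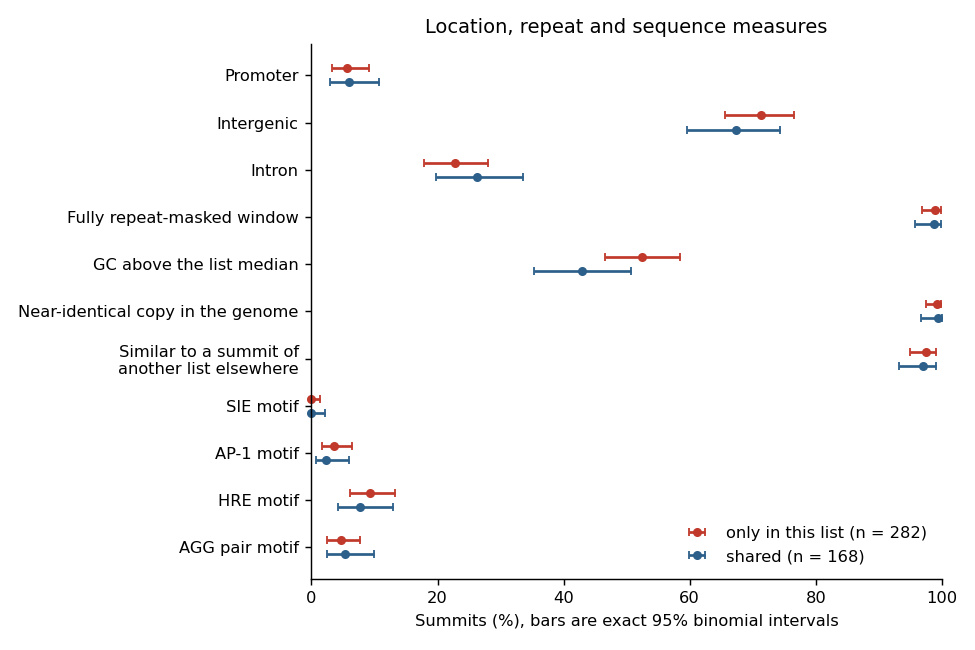
The percentage of WT-peroxide-only (red, n = 282) and shared summits (blue, n = 168) is plotted for each of the 11 measures tested, with exact 95% binomial intervals as bars. The intervals of the groups overlap for every measure, with the widest gap between the points for GC content, at 52.5% and 42.9%.

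The WT-peroxide-only summits were found on all chromosomes. Chromosomes 1 and 3 held 24 each, X 23 and chromosome 2 held 21, while chromosomes 19 and Y held 3 each. Per 100 Mb of known sequence there were 10.7 over the whole genome, with 15.3 on chromosome 3, 14.2 on chromosome 10 and 14.1 on X at the upper end, and 5.15 on chromosome 19, 4.95 on chromosome 9 and 3.4 on Y at the lower end. The shared summits came to 6.35 per 100 Mb, with 9.79 on X, 8.72 on chromosome 17 and 3.16 on chromosome 16. WT-peroxide-only summits made up 76.9% of the list's summits on chromosome 16 and 42.9% on chromosomes 17 and 19, but with 13, 14 and 7 summits these shares have wide errors. X held 8.16% of the WT-peroxide-only summits (5.24 to 12%) and 6.18% of the known bases. Neighbouring WT-peroxide-only summits were a median of 5.22 Mb apart, the closest pair was 14.7 kb apart, and 0 of 261 gaps were under 10 kb, so that the 282 summits did not cluster in few loci.

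**Figure D5:**
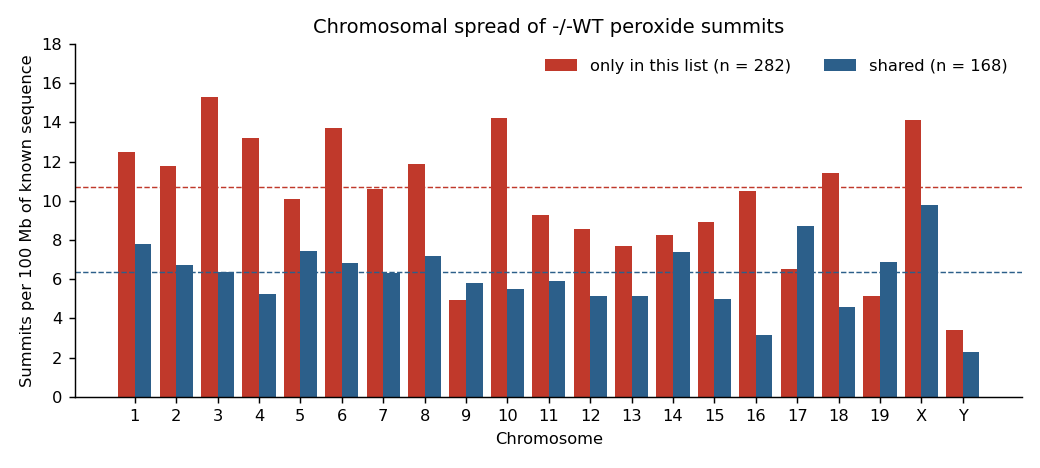
Summits per 100 Mb of known sequence are plotted for each chromosome, with WT-peroxide-only summits in red and shared summits in blue, and dashed lines mark the genome-wide values of 10.7 and 6.35. WT-peroxide-only summits are above shared ones on all chromosomes other than 9, 17 and 19.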

How the data were processed

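ChIP with an anti-Stat3 antibody was sequenced in 2 replicates of each of 5 conditions. The submitters' processing notes name HISAT2, Picard and MACS2, and reads were mapped to mm10. The study's text speaks of unique reads per library, more of them for LIF than for the other conditions, without saying whether this means a unique position or the removal of duplicates. How reads that match several places were treated is otherwise not given in the sources used here, and it bears on every summit in a repeat. For basal and LIF-treated -/-WT cells, the study counts peaks that exceeded the IgG control by over 2-fold. For peroxide it mentions peak calling and thresholding without giving the limit. The labels name 1 IgG library, of -/-WT cells. The authors deposited 1 list of summits per condition, called on both replicates together, with a score per summit. The unit of this score is not stated, and it was used to rank summits within the list only. The lists hold no read counts, so that the depth behind a summit is unknown. The input and IgG libraries were not analysed here.

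Summits were annotated with GENCODE M21 on GRCm38 (patch 6), which shares its coordinates with mm10, in the order promoter, exon, intron, intergenic. Repeat-masked bases are those in lower case in the RefSeq reference sequence. Copies and similar windows were counted with BLAST 2.17.0. Copies of a window were its matches in the assembly other than alternate sequences and the window itself. For WT-peroxide-only against shared summits, 2-sided Fisher's exact tests were run on 11 measures, with Benjamini-Hochberg adjustment. The rule did not use these measures, but similarity to a summit window of another list draws on the same lists as the rule. These tests compare summits within the list and treat them as independent, although many are copies of the same repeat. Scores, distances and chromosomes were described without a test. Python 3.11.15, NumPy 2.4.6, SciPy 1.17.1, samtools 1.23.1 and matplotlib 3.10.9 were used. The classification, motif search and tests were checked on simulated data.

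The rule for named genes covered those with a summit in the promoter, those nearest to the 10 highest-scoring summits and those of 3 lists, with the genes the study listed as responsive to oxidation as a further list. Host genes of intronic summits, genes at summits outside the model element, distances for genes of the lists without a summit within 50 kb, and genes overlapping a named one were added after their values were seen. The summits and the lists were chosen with earlier results of these data known. The comparison with a model element, reading frames, strand of the host gene and masked runs were added after the data were seen and not tested. Alternatives were other distances, promoter and motif windows, identity limits, protein-coding genes only and the higher-scoring summits only.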

Additional observations from a re-analysis of the deposited data

How the results depend on the processing

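None of the 48 alternatives moved the number of WT-peroxide-only summits by over 1.5 times or took a comparison past the threshold. The number stayed between 280 and 283 for other distances and other handling of chromosomes and close summits, and was 343 against the basal -/-WT list alone. Shares that count what lies within a window moved with its width. The promoter share of WT-peroxide-only summits was 1.77% within 1 kb of a start site or with protein-coding genes only, and 21.3% within 10 kb, beside 1.79%, 2.98% and 23.2% of shared summits. In the higher-scoring part of the list, 115 WT-peroxide-only and 110 shared summits, 100% of WT-peroxide-only windows were fully masked. With 50 and 250 bp either side of the summit, AP-1 was in 1.77% and 9.57% of WT-peroxide-only windows, HRE in 5.32% and 25.2%, and the AGG pair in 2.84% and 16.7%. With up to 1 mismatch, the SIE was in 7.09% of WT-peroxide-only and 4.76% of shared windows. No paired analysis was possible because each deposited list was called on both replicates together, and for the same reason no replicate could be left out. What limits the comparisons is that summits in near-identical repeats depend on how reads with several matches were placed, which the files do not show, and that 1 list per condition gives no error between replicates.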
